A study of Mus musculus with 4 samples.

Results

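IL-2 and IL-15 drive the proliferation and survival of NK cells through a shared receptor. Its signalling core is IL-2Rβ (Il2rb) paired with the common γ chain (Il2rg); IL-2Rα (Il2ra, CD25) adds high affinity for IL-2, and IL-15Rα (Il15ra) binds IL-15 and presents it, often from a neighbouring cell, to the core. JAK1 and JAK3, bound to IL-2Rβ and the γ chain respectively, then phosphorylate STAT5A and STAT5B, which move to the nucleus and switch on genes for growth, survival and feedback inhibition. These 9 genes (Il2ra, Il2rb, Il2rg, Il15ra, Il15, Jak1, Jak3, Stat5a and Stat5b) were taken by symbol from a table of 35798 named genes. All 9 were among the 13822 genes with enough counts to test.

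The samples were Ly49H+ NK cells, the subset whose receptor recognises mouse cytomegalovirus (MCMV), sorted from infected spleens at 3.5 days post-infection. Donor cells from CD45.1 wild-type mice and CD45.2 TNFR2 KO mice, which are deficient in Tnfrsf1b, were transferred together into NSG mice. Both populations were then recovered from the same hosts. The question asked was how TNFR2 on NK cells shapes their gene expression during infection. There were 2 libraries for each genotype, from a single experiment, each made from pooled spleens of 3 host mice, and same-numbered wild-type and TNFR2 KO libraries came from the same pool. Mice in the study were 6 to 12 weeks old. NSG hosts have no T, B or NK cells of their own and carry no functional Il2rg, but keep myeloid cells. The TNFR2 deficiency cannot be told apart from the CD45 allele or from the sort gate, which differed in step with it. No library was made from uninfected hosts or before transfer.

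Each library held 32713054 to 39543464 estimated counts, and values are given as CPM, a gene's counts relative to the size of its library after TMM scaling. Tnfrsf1b, the targeted gene, was measured at 264.7 and 268.6 CPM in wild-type and at 55.1 and 58.6 CPM in TNFR2 KO libraries (log2-fold change -2.23). Transcript of this gene was thus still counted in TNFR2 KO libraries, and its source was not tested. The NK cell receptor gene Ncr1 averaged 256.9 CPM in wild-type libraries against 510.9 in TNFR2 KO libraries (log2-fold change 0.99), and Klra8, which encodes the sorted marker Ly49H, averaged 314.6 and 743.9 CPM (1.24). Both genes were added to the description after their values were seen, and with libraries scaled on NK lineage genes, which include them, their log2-fold changes were 0.15 and 0.40. Duplicates differed by more than counting noise (chi-square per gene 3.27 for wild-type and 3.47 for TNFR2 KO) and were kept as separate samples.

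Transcripts that mark other cells were counted in the libraries, at different levels in the 2 genotypes. NK cells were purified before transfer, and cells recovered from the hosts were sorted on Ly49H and CD45. The CD45 gate differed between the genotypes, and how well each gate excluded host cells was not tested. Summed CPM of 26 macrophage or monocyte genes was 3015 to 3035 in wild-type and 1388 to 1412 in TNFR2 KO libraries, with 23 genes lower and 3 higher. Lyz2 of this list went from 774.6 to 112.2 CPM on average, whereas Ccr2, which was the other most abundant gene of the list, went from 393.8 to 678.2 CPM. The sum of 13 dendritic cell or class II genes was 1843 to 1883 CPM against 208.5 to 208.6 CPM, including Cd74 at 916.3 against 76.8 CPM and H2-Ab1 at 307.7 against 27.4 CPM. Sums were likewise lower in TNFR2 KO for neutrophil (1028 to 1046 against 102.5 to 106.8 CPM), mast cell or basophil (1320 to 1325 against 116.8 to 117.7 CPM) and erythroid genes (291.1 to 296.1 against 66.6 to 71.1 CPM). Of these, 15 of 15 neutrophil and 10 of 10 erythroid genes were lower, and of 13 tested mast cell or basophil genes 11 were lower and 1 higher. T cell genes summed to 1485 to 1492 against 1353 to 1385 CPM (7 lower and 2 higher of 12), and B cell genes to 41.7 to 43.3 against 49.7 to 51.7 CPM (1 lower and 1 higher of 3 tested). Stromal or endothelial genes summed to 117.5 to 122.7 against 137.4 to 139.2 CPM, but most of those tested went against their sum, with 4 of 7 lower, 1 higher and a median log2-fold change of -1.16. The sum of 44 NK lineage genes was 18370 to 18531 CPM in wild-type and 34105 to 34508 CPM in TNFR2 KO, with 41 higher and 1 lower. No list had a gene at 0 in every library. The part of these differences in the results on the receptor genes was not tested, and in bulk samples fewer cells of a type and less RNA per cell cannot be told apart.

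The receptor genes lie on 6 chromosomes in the GRCm38 build (GENCODE M21 gene bodies). Il2ra (chr2:11642807-11693193, plus strand) and Il15ra (chr2:11705290-11734317, plus strand) are neighbours that encode related α chains. Il2rb lies at chr15:78479256-78495271, minus strand, and Il2rg at chrX:101264378-101268255, minus strand. Stat5b (chr11:100780731-100850724, minus strand) and Stat5a (chr11:100859351-100885169, plus strand) stand next to each other, facing outwards. Jak1 lies at chr4:101152367-101265282, minus strand, Jak3 at chr8:71676296-71690575, plus strand, and Il15 at chr8:82331632-82403222, minus strand.

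Promoters of Il2ra and Il2rg are shown because these chains of one receptor had opposite changes in CPM with TMM scaling. With libraries scaled on NK lineage genes both were lower in TNFR2 KO, at log2-fold changes of -1.11 and -0.40. Each sequence holds the 250 bases before the RefSeq start on GRCm38.p6, read on the gene's own strand, at chr2:11642542-11642791 for Il2ra and chrX:101268256-101268505 for Il2rg. Capitals mark matches to the 10-base NF-κB consensus, and there are 2 overlapping matches in Il2ra, starting 201 and 200 bases before the start.
Il2ra promoter: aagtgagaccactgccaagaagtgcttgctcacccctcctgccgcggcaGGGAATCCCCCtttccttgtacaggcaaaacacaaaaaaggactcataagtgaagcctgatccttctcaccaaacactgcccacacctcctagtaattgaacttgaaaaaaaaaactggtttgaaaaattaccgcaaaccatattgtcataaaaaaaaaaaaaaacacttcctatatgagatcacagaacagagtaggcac
Il2rg promoter: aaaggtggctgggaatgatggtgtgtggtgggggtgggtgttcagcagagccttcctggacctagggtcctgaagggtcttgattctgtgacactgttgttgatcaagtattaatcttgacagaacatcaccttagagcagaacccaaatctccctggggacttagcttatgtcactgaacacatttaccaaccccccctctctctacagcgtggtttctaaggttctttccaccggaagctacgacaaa
Both strands were searched. RefSeq gave 10 promoters for 7 of the 9 genes, Il2rb and Il15 having none in the table used. The NF-κB consensus was found in 2 of the 10, in Il2ra and at 1 of the 2 starts of Stat5a, and in 7.25% of 32851 mouse promoters of the same length. The STAT5 motif TTCNNNGAA was in 0 of the 10 and in 7.02% of all promoters. These matches describe letters in a short window only.

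How well the counting could separate the genes differed between them. In GENCODE M21 transcripts, 12.3% of the 31-base stretches of Stat5a and 15.2% of those of Stat5b also occurred in another gene, nearly always the other Stat5 gene. The longest exact run common to both is 324 bases and is coding sequence. Its first 120 bases, printed to show what a short read could not assign, span exons 7 to 8 of 20 of Stat5a (chr11:100874023-100874347, plus strand) and exons 6 to 7 of 19 of Stat5b (chr11:100798377-100798701, minus strand).
Stat5a and Stat5b common stretch: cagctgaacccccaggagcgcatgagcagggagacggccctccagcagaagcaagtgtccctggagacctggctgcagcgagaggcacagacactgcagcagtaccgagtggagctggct
Il2rg held 28.7% shared stretches, all with the overlapping annotation Gm20489, and Jak3 held 8.29%, of which 6.92% of its stretches were shared with the overlapping Insl3. Insl3 had 7.99 to 10.7 CPM. Il2ra shared 2.21% and Il15ra 0.257% of their stretches, Jak1 0.0273%, and Il2rb and Il15 shared none. Values of Il2rg, Stat5a and Stat5b are therefore less certain than the count depth alone gives.

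With TMM scaling all 9 genes had an adjusted p under 0.05, 5 lower and 4 higher in TNFR2 KO, and the 4 higher genes turned lower when libraries were scaled on NK lineage genes. The lower genes were the α chains Il2ra and Il15ra, the cytokine Il15 and both STAT5 genes; the higher genes were the signalling chains Il2rb and Il2rg and the kinases Jak1 and Jak3. Every change was moderate, and 0 of the 9 passed an absolute log2-fold change of 1 as well, by edgeR and by DESeq2. At an unadjusted p under 0.05, 9 passed in edgeR, as their adjusted p under 0.05 implies. DESeq2 gave 8 at its adjusted p, where it called 5413 of all 13822 tested genes.

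The share must be read against these libraries as a whole, where 50.4% of the tested genes had an adjusted p under 0.05, 26.2% lower and 24.2% higher. For the 8763 genes that averaged 10 CPM or more, a class that holds 8 of the 9, it was 56.8%. Both thresholds were passed by 13.3% of tested genes, and by 478 of 8763 when only genes averaging 10 CPM or more were fitted. Wild-type and TNFR2 KO values did not overlap for any of the 9 genes, as for 74% of all tested genes. The median log2-fold change over all tested genes was -0.003. An exact two-sided permutation test of a single gene could reach no p below 0.333 in this design, so calls rest on the quasi-likelihood test of edgeR, adjusted over all tested genes by the Benjamini-Hochberg method.

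**Figure D1:**
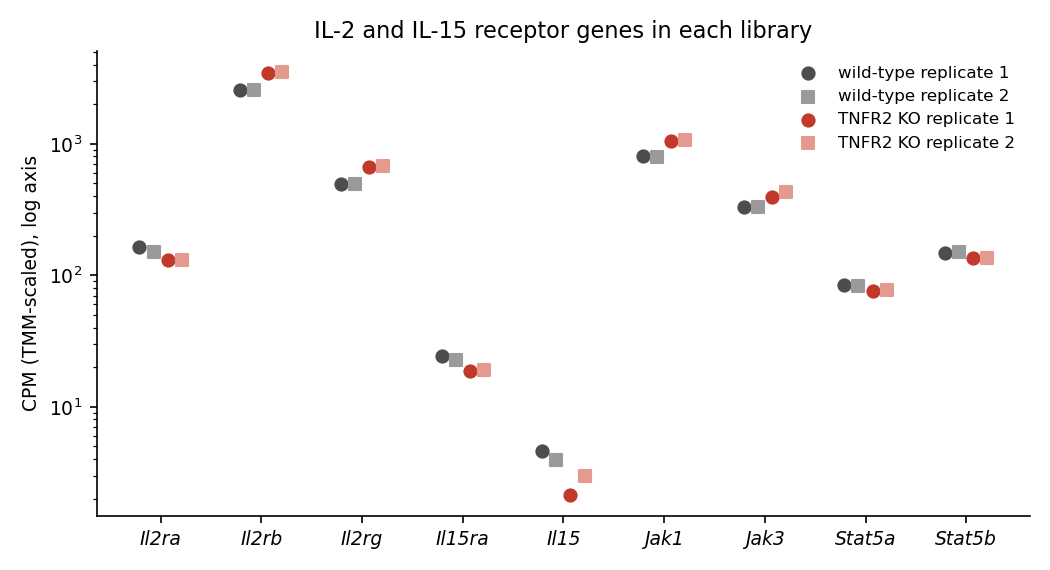
TMM-scaled CPM on a log axis for the 9 genes, with 1 point for each library (wild-type in grey, TNFR2 KO in red; circles replicate 1, squares replicate 2). Il2rb spans 2580 to 3520 CPM and Il15 2.15 to 4.64 CPM, and in each gene the genotypes do not overlap.

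Il2rb, the β chain, was the most abundant of the 9 at 2583 and 2580 CPM in wild-type and 3477 and 3520 CPM in TNFR2 KO cells. Both TNFR2 KO libraries were above both wild-type libraries. The means were 2581 ± 2.14 and 3498 ± 29.9 CPM (SD, n = 2), a log2-fold change of 0.44 (SE 0.0183, adjusted p = 1.06e-09).

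Il2rg, the common γ chain that IL-4, IL-7, IL-9 and IL-21 receptors also use, read 494.5 and 490.5 CPM in wild-type and 664.7 and 675.6 CPM in TNFR2 KO libraries. It was higher in both TNFR2 KO libraries, and its log2-fold change was that of Il2rb, 0.44 (SE 0.0235, adjusted p = 1.06e-08). The NSG hosts lack a functional copy of this gene, whereas the donor cells of both genotypes carry it. Il2rb and Il2rg rose with TMM scaling, by 35.5% and 36%, but both were lower in TNFR2 KO when libraries were scaled on the 44 NK lineage genes, each with a log2-fold change of -0.40.

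Wild-type cells had Il2ra at 162.7 and 150.7 CPM, and TNFR2 KO cells at 131.3 and 129.6 CPM. Wild-type replicate 1 was the highest and the TNFR2 KO libraries lay within a few CPM of each other. Il2ra fell by 16.8% (means 156.7 ± 8.47 and 130.4 ± 1.23 CPM, SD, n = 2), a log2-fold change of -0.26 (SE 0.0379, adjusted p = 9.2e-05). Leaving out each library in turn gave -0.31 to -0.20, and NK lineage scaling gave -1.11. This gene encodes CD25, the chain whose surface level the study followed by flow cytometry.

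Il15ra, the α chain for IL-15, was also lower in both TNFR2 KO libraries, at a lower level, with 24.5 and 22.5 CPM in wild-type and 18.8 and 18.9 CPM in TNFR2 KO libraries. Its log2-fold change was -0.32 (SE 0.0683, adjusted p = 0.00194), and -1.16 with NK lineage scaling. Macrophages and dendritic cells also express Il15ra, and the summed levels of their genes, given above, were lower in the same libraries.

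Il15 was the least abundant of the 9, with 176 and 144 counts in wild-type and 83 and 95 counts in TNFR2 KO libraries. These correspond to 4.64 and 3.91 CPM against 2.15 and 2.97 CPM, and the TNFR2 KO libraries differed from each other about as much as the wild-type libraries did. Il15 had the largest fold change of the 9, a log2-fold change of -0.75 (SE 0.202, adjusted p = 0.00824), with the largest error. Without wild-type replicate 1 the value was -0.61 and no longer passed (adjusted p = 0.0623), and across libraries left out in turn it ranged from -0.99 to -0.52. Myeloid cells are a known source of IL-15, and their genes moved in the same direction; their part in this value was not tested. Il2, which encodes IL-2, had 3 and 7 counts in wild-type and 10 and 4 counts in TNFR2 KO libraries and was too low to test.

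Jak1, the kinase bound to IL-2Rβ, read 808.3 and 796.2 CPM in wild-type and 1046 and 1071 CPM in TNFR2 KO cells, giving a log2-fold change of 0.40 (SE 0.0231, adjusted p = 2.33e-08). Jak3, which binds the γ chain, read 330.4 and 331.1 CPM against 396.3 and 426.7 CPM, a log2-fold change of 0.31 (SE 0.0329, adjusted p = 6.01e-06). For both kinases each TNFR2 KO library was above each wild-type library, and the TNFR2 KO libraries were further apart for Jak3. Both turned lower with NK lineage scaling, Jak1 at -0.44 and Jak3 at -0.53.

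With TMM scaling the STAT5 genes moved the other way, and by less, whereas with NK lineage scaling Stat5a at -0.97 and Stat5b at -0.98 went the same way as the kinases and by more. Stat5b had 147.6 and 149.8 CPM in wild-type and 135.9 and 134.1 CPM in TNFR2 KO cells, giving a log2-fold change of -0.14 (SE 0.0303, adjusted p = 0.00222). Stat5a had 84.2 and 82.7 CPM against 76.3 and 77.0 CPM, a log2-fold change of -0.12 (SE 0.0367, adjusted p = 0.0145). Stat5a was the least firm call of the 9: DESeq2 gave an adjusted p of 0.0859, and edgeR gave 0.119 without wild-type replicate 1 and 0.0788 without TNFR2 KO replicate 1. With wild-type replicate 1 left out, 3 genes rather than 5 were called lower, as Il15 and Stat5a lost their calls.

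**Figure D2:**
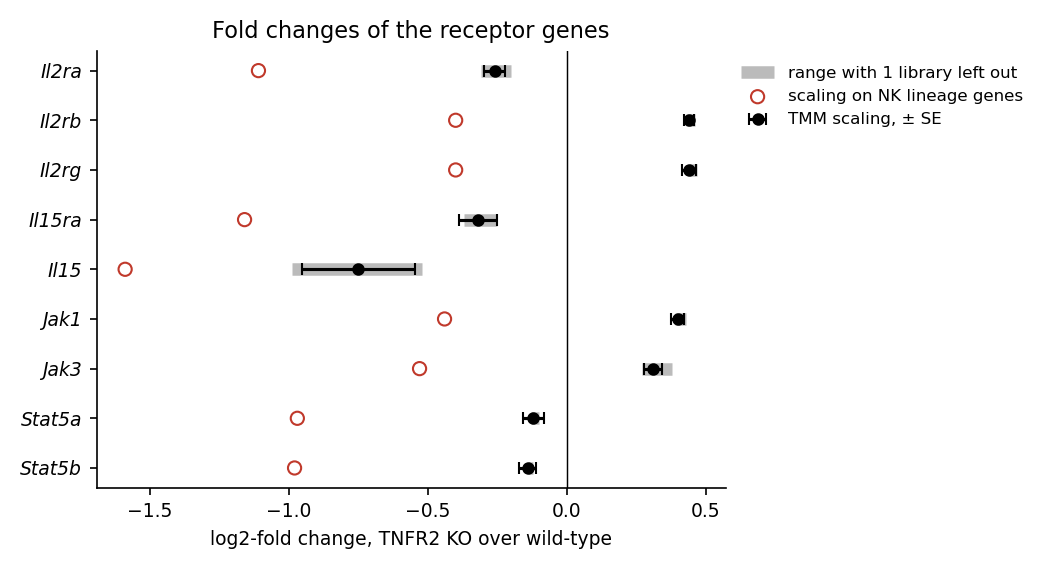
Log2-fold changes of the 9 genes, TNFR2 KO against wild-type, with TMM scaling (black points, bars are the SE), its range when 1 library is left out (grey bars), and with libraries scaled on 44 NK lineage genes (open red circles). Il2rb, Il2rg, Jak1 and Jak3 lie at 0.31 to 0.44 with TMM and at -0.53 to -0.40 with NK lineage scaling, and the other 5 genes lie below 0 with both.

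The choice of scaling sets the directions. Scaling on the NK lineage genes shifted the median of all tested genes to -0.84 on the log2 scale and put all 9 genes lower in TNFR2 KO. This scaling moves every gene by about the same amount, so each gene keeps its place around the median by construction. Il2rb and Il2rg at -0.40, Jak1 at -0.44 and Jak3 at -0.53 thus lay above it. Il2ra at -1.11, Il15ra at -1.16, Il15 at -1.59, Stat5a at -0.97 and Stat5b at -0.98 lay below it. Ratios of counts within a library, which no scaling alters, were compared as well, and they restate the differences between the fold changes.

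Per 100 counts of Il2rb, the libraries held 6.3 and 5.84 counts of Il2ra in wild-type and 3.78 and 3.68 in TNFR2 KO. The TNFR2 KO ratio was 0.614 of the wild-type ratio, with means of 6.07 ± 0.323 and 3.73 ± 0.067 (SD, n = 2). Il15ra per 100 Il2rb counts was 0.948 and 0.872 in wild-type and 0.54 and 0.537 in TNFR2 KO. Both α chains therefore made up less of the receptor transcripts in TNFR2 KO libraries. Summed markers of macrophages or monocytes, dendritic cells, neutrophils and mast cells, given above, were lower in the same libraries. The part of such cells in these ratios was not tested.

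Il2rg kept pace with Il2rb, at 19.1 and 19 counts per 100 in wild-type and 19.1 and 19.2 in TNFR2 KO, which overlap. Jak3 per 100 Jak1 counts was 40.9 and 41.6 in wild-type and 37.9 and 39.8 in TNFR2 KO, lower in both TNFR2 KO libraries by a ratio of 0.943. Against Jak1 the STAT5 genes fell back in TNFR2 KO. Stat5a stood at 10.4 in both wild-type libraries and at 7.29 and 7.19 in TNFR2 KO. Stat5b stood at 18.3 and 18.8 against 13 and 12.5. The balance of the STAT5 genes was steady, with 57.1 and 55.2 Stat5a counts per 100 Stat5b counts in wild-type and 56.1 and 57.4 in TNFR2 KO. The ratios were chosen after the values were seen and are given as descriptions, without a test.

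**Figure D3:**
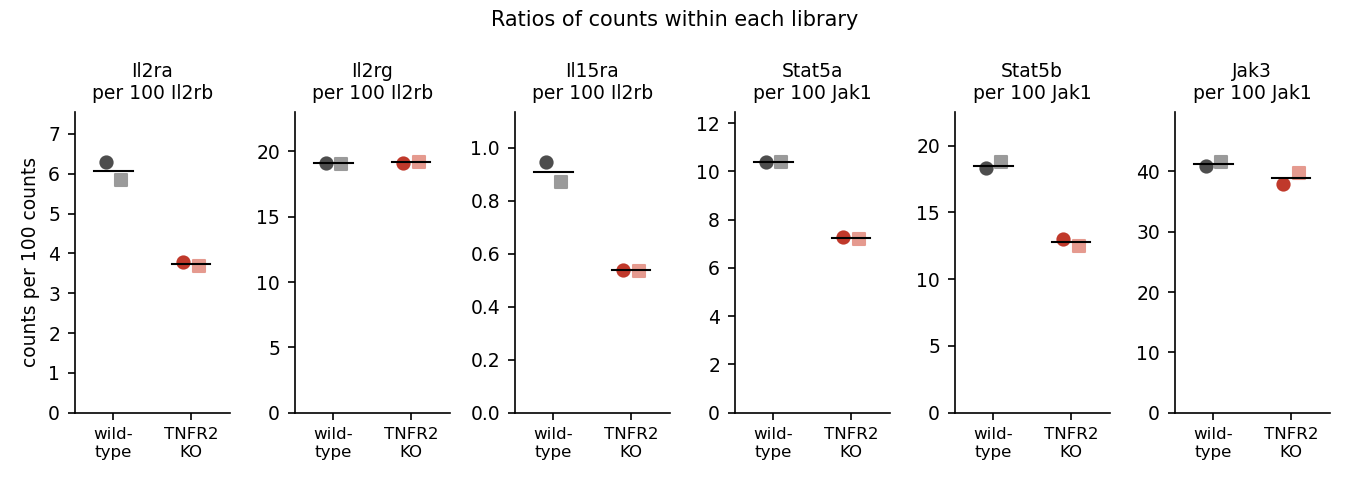
Counts of 1 gene per 100 counts of another in the same library, for wild-type (grey) and TNFR2 KO (red) libraries, with circles for replicate 1, squares for replicate 2 and lines at the means. Il2ra per 100 Il2rb drops from a mean of 6.07 to 3.73 while Il2rg per 100 Il2rb is 19.1 and 19.2.

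Levels of different genes can be compared only per length. In CPM per kilobase of the median transcript, the order was the same in all 4 libraries: Il2rb, Il2rg, Jak1, Jak3, Il2ra, Stat5b, Stat5a, Il15ra and Il15. Il2rb had 847.4 to 1156 CPM per kilobase, Il2rg 293.7 to 404.5, and Jak1 162.3 to 218.3. Jak3 was at 82.4 to 106.4, Il2ra at 47.8 to 60 and Stat5b at 26.1 to 29.2. Stat5a had 20.4 to 22.5, Il15ra 12.1 to 15.9 and Il15 1.72 to 3.71 CPM per kilobase. No neighbours in this order overlapped over the 4 libraries. With the shortest transcript of each gene as its length, Il2ra stood above Jak3 and Il15ra above Stat5b.

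The rest of the pathway was followed in 6 lists of genes, where fold changes are again TNFR2 KO over wild-type with TMM scaling. Every call in these lists that was higher with TMM scaling was lost or turned lower with NK lineage scaling, which left 0 higher genes in each list. The counts stand beside 50.4% of all tested genes called, 26.2% lower and 24.2% higher, and beside an all-gene median of -0.003. The list of common γ chain cytokines and partner receptors also held the related genes Il13ra1, Crlf2 and Tslp. Of its 12 genes 9 were tested, 4 lower, 1 higher and 4 neither. Its median was -0.34, which became 0.04 among genes with a mean of 10 CPM or more. Il13ra1, which pairs with Il4ra, had the largest drop, from 9.8 ± 0.125 to 1.68 ± 0.323 CPM (SD, n = 2; log2-fold change -2.56, adjusted p = 6.68e-08). Il7r, the IL-7 receptor α chain, fell from 6.94 ± 0.145 to 2.56 ± 0.359 CPM (-1.45, adjusted p = 1.01e-05), and these were the 2 genes of the list past both thresholds. Myeloid cells also express Il13ra1, and the part of their lower summed level was not tested. Il4ra fell from 80.8 to 63.8 CPM (-0.34). Crlf2, a chain of the TSLP receptor, rose from 56.5 to 81.7 CPM (0.53). Il21r, the most abundant, was at 110.1 and 114.8 CPM in wild-type and 108.5 and 113.2 CPM in TNFR2 KO and overlapped. Il9 had 0 counts in every library, which allows up to 3 counts, or 0.0775 to 0.0936 CPM, in each (counting error only).

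Of the 7 other JAK and STAT genes, 3 were lower, 3 higher and 1 neither, with a median of 0.03. Stat2, a transducer of interferon signals, was lower, from 149.9 ± 1.06 to 97.0 ± 0.646 CPM (SD, n = 2; -0.63, adjusted p = 6.25e-09), as was Jak2 (-0.19). Stat4, which carries IL-12 signals, rose from 158.4 to 225.9 CPM (0.51), with Tyk2 (0.25) and Stat6 (0.16). Stat3 had 358.6 and 366.5 CPM and did not pass (0.03, adjusted p = 0.333).

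Of 24 genes in the PI3K, AKT and mTORC1 arm, which carries growth and nutrient signals from the receptor, 4 were lower, 11 higher and 9 neither, with a median of 0.08 and 0 past both thresholds. The higher genes included the PI3K subunits Pik3cb (60.7 to 93.1 CPM, 0.62), Pik3r1 (180.2 to 251.7 CPM, 0.48) and Pik3cd (474.1 to 525.3 CPM, 0.15), the kinase Akt2 (0.23) and the ribosomal protein gene Rps6 (0.21). The lower genes included Eif4ebp1, which encodes a brake on translation that mTORC1 releases (13.5 to 9.33 CPM, -0.54), and Rps6kb1 (-0.15), which lost its call without wild-type replicate 2 (adjusted p = 0.0603). Akt1, the most abundant AKT gene, did not pass (0.04, adjusted p = 0.327).

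In the Shc, Ras and MAPK arm, 5 of 18 genes were lower, 7 higher and 6 neither, with a median of 0.04. Lck, a Src-family kinase that associates with IL-2Rβ, rose from 607.2 to 754.9 CPM (0.31), and Mapk3 (0.37), Sos2 (0.33) and Syk (0.13) were also higher. The adaptor gene Gab2 fell from 30.3 to 20 CPM (-0.60). Gab1, at 1.97 against 0.309 CPM, was the 1 gene of the list past both thresholds (-2.70).

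Negative regulators were 6 lower, 4 higher and 7 neither of 17, with a median of -0.06. Cish and Socs1, SOCS-family genes induced by STAT5, were lower. Cish, which was added after its values were seen, had 57.0 and 57.5 CPM in wild-type and 39.5 and 42.4 CPM in TNFR2 KO (log2-fold change -0.49, SE 0.0489, adjusted p = 4.31e-06). Socs1, which inhibits JAK kinases directly, had 68.4 and 67.7 CPM against 47.7 and 50.8 CPM (-0.47, SE 0.045, adjusted p = 2.9e-06). The phosphatase genes Ptpn6 (263.3 to 178.7 CPM, -0.56) and Ptpn1 (259.1 to 201.9 CPM, -0.36) were lower too, whereas Pias3 (0.41), Cblb (0.24) and Cbl (0.16) were higher. Ptpn6 encodes SHP-1, which myeloid cells also express.

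The list of 22 genes taken as induced by IL-2 or IL-15 through STAT5 was chosen by hand, and their control by STAT5 was not tested here. Cish and Socs1, given above as induced by STAT5 and lower, were kept with the negative regulators and are not among the 22. The 22 genes split, with 7 lower, 12 higher and 3 neither, and a median of 0.15, which depends on this choice. The higher genes included the cytotoxic effectors Gzmb (3876 ± 24.5 to 6540 ± 69.4 CPM, SD, n = 2; 0.75, adjusted p = 3.07e-12) and Prf1 (1377 to 2454 CPM, 0.83), the survival kinase Pim2 (133.3 to 249.3 CPM, 0.90) and the transcriptional regulator Id2 (0.47). Bcl2, the anti-apoptotic gene that IL-15 sustains in NK cells and that was added after its values were seen, rose from 38.6 to 66.9 CPM (0.79). Of the 12, Gzmb, Prf1, Eomes and Tbx21 are also in the NK lineage list. With NK lineage scaling Gzmb was at -0.09, Prf1 at -0.008, Bcl2 at -0.05 and Id2 at -0.37, and Pim2 stayed above 0 at 0.06.

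The lower genes of the same list included the growth regulator Myc, likewise added after its values were seen, at 40.6 and 45.8 CPM in wild-type and 31.9 and 28.9 CPM in TNFR2 KO (-0.50, SE 0.0683, adjusted p = 5.92e-05). Slc7a5, the light chain of an amino acid transporter, fell from 105.1 to 78.6 CPM (-0.42). The TNF-superfamily gene Ltb, which encodes lymphotoxin β (25.1 to 11.2 CPM, -1.16), and the TNF receptor superfamily gene Tnfrsf4, which encodes OX40 (38.7 to 22.9 CPM, -0.76), fell as well. With NK lineage scaling, which shifts every gene down, these values were lower still, with Myc at -1.34, Slc7a5 at -1.26 and Tnfrsf4 at -1.60.

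**Figure D4:**
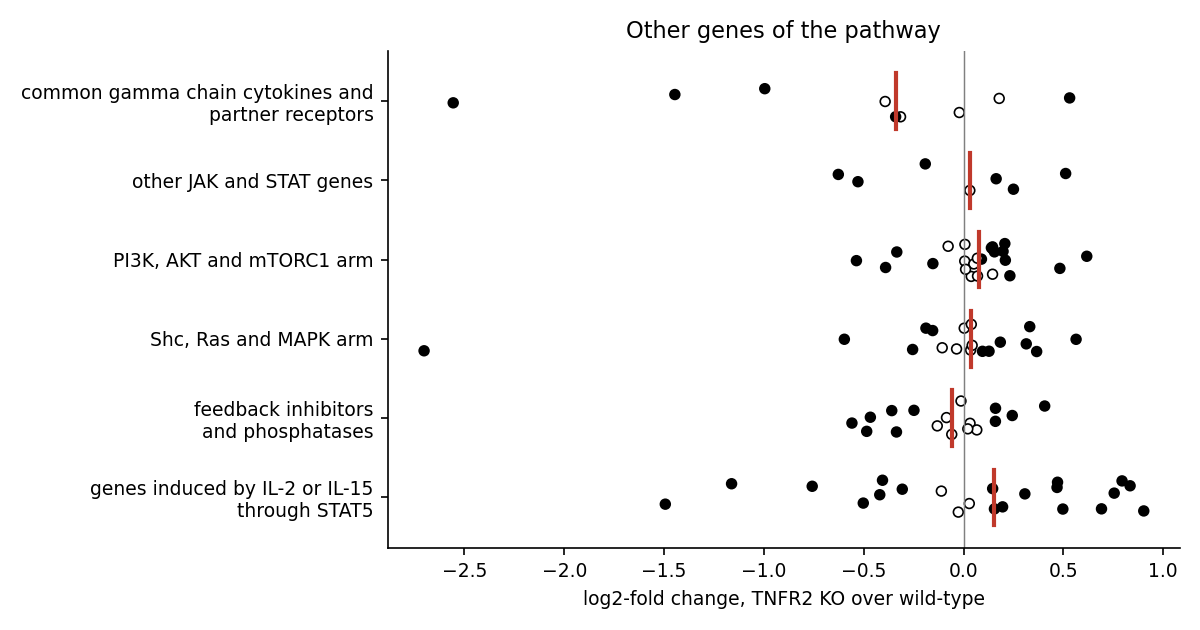
Log2-fold changes (TNFR2 KO against wild-type, TMM scaling) for each tested gene of the 6 pathway lists; filled points have an adjusted p under 0.05, open points do not, and red lines are list medians. Medians run from -0.34 for the common γ chain list to 0.15 for the STAT5-induced list, and each list holds genes on both sides of 0. With NK lineage scaling no list keeps a gene called higher.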

How the data were processed

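Poly-A selected, stranded RNA-seq (100 bp paired-end reads, NovaSeq) was made from 4 libraries. Per the labels and the methods, the authors trimmed reads with Trimmomatic 1.4, quantified transcripts with kallisto 0.46.1 against mm10 and summed them to genes with Tximport. For the transcript annotation, nothing is stated in the labels or methods. The table as deposited by the authors holds estimated counts per gene (the kallisto expected counts), not normalised, and no replicate was pooled in the table. kallisto shares reads between similar transcripts by likelihood, so paralogs and overlapping genes can exchange counts.

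Counts were rounded to whole numbers. A row without a gene name held 0.0559% to 0.0728% of each library and was left out. Genes were filtered with filterByExpr, scaled by TMM and tested with edgeR 4.0.16 in R 4.3.3 (quasi-likelihood test, genotype as the only term, Benjamini-Hochberg adjustment over 13822 genes). The code was also run on simulated counts in which few genes changed, up or down at random. That run could not test the choice of scaling in these data. The SE is the coefficient divided by the root of its F. The biological coefficient of variation was 3.33%, and p-values measure only the spread between duplicates of 1 experiment. The study describes a pooled spleen sample and does not say how far the duplicates hold the spread between animals. Same-numbered libraries came from the same pool of hosts, per the labels, so they are paired; the correlation of their deviations from the genotype means was 0.0243. Depth was 32713054 to 39543464 counts per library, so counting error is small except for genes such as Il15.

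Alternatives were DESeq2 1.42.0, other scalings (44 NK lineage genes among them), 2 filters, the replicate block and leaving out each library. Positions and transcript lengths came from GENCODE M21 and promoters from RefSeq. Figures used Python 3.11.15 and matplotlib 3.10.9. The 9 genes and all lists (6 pathway lists, and markers of macrophages or monocytes, dendritic cells or class II, neutrophils, mast cells or basophils, erythroid, B, T, stromal or endothelial and NK cells) were chosen with earlier results of these data known. Genes named were the 9, Tnfrsf1b, in each pathway list the 3 most abundant and, per direction, the 3 with the lowest adjusted p, and the 2 most abundant of the macrophage or monocyte and of the dendritic cell or class II lists; Cish, Bcl2, Myc, Il2, Il9, Insl3, Ncr1, Klra8, Eomes and Tbx21 were named outside this rule, after their values were seen. A few genes that the rule names are not reported here.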

Additional observations from a re-analysis of the deposited data

How the results depend on the processing

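Size factors from DESeq2, upper-quartile factors, no filter and the replicate block left all 9 receptor genes with the same direction and call. The pairing by host pool (replicate block) gave 7088 genes with an adjusted p under 0.05 beside 6965 without it, and it changed no call of the receptor or other named genes. Scaling on NK lineage genes had the largest effect: Il2rb and Il2rg were at -0.40, Jak1 at -0.44 and Jak3 at -0.53, so that 9 receptor genes were lower, 0 higher and 3 past both thresholds. It called 12289 of the 13822 tested genes at an adjusted p under 0.05 and 4362 past both thresholds. The median of all tested genes was then -0.84, so most genes were lower, and counts of lower genes must be read against that. Lower genes in the pathway lists then numbered 8 (common γ chain), 7 (other JAK and STAT), 24 (PI3K, AKT and mTORC1), 18 (Shc, Ras and MAPK), 17 (inhibitors and phosphatases) and 19 (STAT5-induced), with 0 higher in each. Single genes whose value turned from above to below 0 were Crlf2 at -0.31, Stat3 at -0.81, Tyk2 at -0.59, Stat4 at -0.33, Stat6 at -0.68, Rps6 at -0.64, Pik3cd at -0.69, Akt1 at -0.80, Pik3cb at -0.23, Pik3r1 at -0.36, Akt2 at -0.61, Lck at -0.53, Syk at -0.71, Mapk3 at -0.48, Sos2 at -0.51, Cbl at -0.68, Pias3 at -0.44, Cblb at -0.60, Gzmb at -0.09, Prf1 at -0.008, Id2 at -0.37, Ccr2 at -0.06 and Bcl2 at -0.05. This shift follows from the scaling itself, since NK lineage genes were higher in TNFR2 KO.

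A filter at a mean of 10 CPM left 478 of 8763 tested genes past both thresholds, beside 1842 of 13822 with the main filter. It left 1 lower gene in the common γ chain list and moved that list's median from -0.34 to 0.04. With this filter Stat3 was at -0.005 and Il15 had no value. Scaling by library size alone put Stat3 at -0.03 and Akt1 at -0.02, with a median of all genes of -0.06, and turned the medians of the other JAK and STAT list (-0.03) and of the Shc, Ras and MAPK list (-0.02) below 0. DESeq2 gave Stat5a at -0.12 (adjusted p = 0.0859); the cause was not tested. Leaving out 1 library gave -0.99 to -0.52 for Il15, -0.13 to -0.10 for Stat5a, 3 to 5 lower receptor genes, 1 to 2 higher genes in the common γ chain list and -0.05 to 0.02 for Il21r. Where 1 library remained in a genotype, its spread was taken from the other genotype. Rps6kb1 lost its call without wild-type replicate 2 (-0.13). Depth limits the genes with few counts, such as Il15 with 83 to 176 counts.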
